A study of Zea mays with 18 samples.

Results

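The roots of a pair of maize mutants, *zmnlp3.1* and *zmnrt1.1b*, were compared directly 2 h after nitrate was given to N-starved seedlings. The comparison rests on 6 RNA-seq libraries of the 18 in the series, chosen by their labels alone: *zmnlp3.1* KNO3 replicates 2, 3 and 4, and *zmnrt1.1b* KNO3 replicates 2, 4 and 5. The seedlings had full nutrient solution for 10 days, were starved of N for 4 days, and were then given 5 mM KNO3, or 5 mM KCl as the control without nitrate. The other 12 libraries are 3 of each mutant under KCl and 3 of the wild type (WT) under each treatment. Per the study's methods the mutants were made by CRISPR/Cas9 in the inbred line ND101, whereas the reads were aligned to the genome of another inbred line, B73. The labels call the mutants knockdowns and the methods call them loss-of-function, and which edited line of each was sequenced is not given in the sources used here. Nothing in the labels says that the libraries of a group came from separate plants, so the p-values measure the spread between these libraries.

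The mutated genes stand at different steps of nitrate sensing. NRT1.1 proteins are nitrate transporters of the plasma membrane, and the Arabidopsis one is also a nitrate sensor. NIN-like proteins (NLPs) are transcription factors which, in Arabidopsis, are held in the nucleus when nitrate arrives and switch on genes of nitrate uptake and reduction. Both lines therefore lack or lower a part of the same signalling route, and the direct comparison asks which genes differ in level when one part rather than the other is missing.

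For *ZmNLP3.1* the gRNAs were directed at the second exon. They are shown because they are the part of the gene at which the mutant was made. The 19 bases below are those that each pair of cloning oligos has in common, written 5′ to 3′ with no position in capitals, and were not placed on a genome here. The guides for *ZmNRT1.1B* were not analysed here.
guide 1: caatacacgactgagcaga
guide 2: tctgcaaagcacttgaggt

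Levels are FPKM, reads scaled to gene length and library depth, as deposited by the authors. The deposited table has 47334 genes, 27409 of them with the name of a similar described protein, which is often a protein of another species. Differences are log2(FPKM + 0.1) of *zmnlp3.1* minus *zmnrt1.1b*, so a negative value is a lower level in *zmnlp3.1*, and the pseudocount makes differences of low genes smaller than they are. A gene was tested when it reached 1 FPKM in at least 3 of the 6 libraries, which 24244 did. Past the test means an adjusted p under 0.05 (limma, Benjamini-Hochberg over all tested genes, two-sided), and past both thresholds means also an absolute log2 difference over 1.

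Reads recovered from the FPKM values summed to 16956831 to 17770002 per *zmnrt1.1b* KNO3 library and 17186874 to 18294139 per *zmnlp3.1* KNO3 library. *zmnrt1.1b* KNO3 replicate 2 stood somewhat apart, with 29881 genes above 0 against 30646 to 31013 in the other 5. The files do not say which identifiers are *ZmNRT1.1B* and *ZmNLP3.1*, so the labels could not be checked on the edited genes. Of 73 leaf markers, 8 were at or above 1 FPKM in each mutant. Their summed level ran from 38.7 to 47.9 FPKM in *zmnrt1.1b* and from 37.8 to 46.1 FPKM in *zmnlp3.1*. All 6 genes described as Casparian strip membrane proteins, which mark the root endodermis, were detected in both mutants, and their summed level ran from 19.8 to 43.8 FPKM in *zmnrt1.1b* and from 40.3 to 57.6 FPKM in *zmnlp3.1*. Their part in the differences below was not tested. In whole roots, fewer cells of a type and less RNA per cell cannot be told apart.

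More genes were lower than higher in *zmnlp3.1*. Under KNO3, 904 genes (3.73% of those tested) were lower and 409 (1.69%) were higher in *zmnlp3.1* than in *zmnrt1.1b*, and 613 (2.53%) and 236 (0.973%) also passed the threshold of size. The median difference over all tested genes was 0.02. At an unadjusted p under 0.05 there were 3181 lower and 2458 higher genes. The counts depend on single libraries. Without *zmnlp3.1* replicate 4 there were 252 lower and 90 higher genes, and without *zmnrt1.1b* replicate 5 there were 217 lower and 128 higher.

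The same comparison in the KCl libraries, which share no sample with it, shows which differences were there without nitrate. Under KCl, 1065 of these genes (4.39%) were lower and 301 (1.24%) higher in *zmnlp3.1*, of which 509 (2.1%) and 113 (0.466%) passed both thresholds. The KCl counts, and the overlaps with them given next, depend on single libraries as well. Without *zmnrt1.1b* KCl replicate 2 there were 37 lower and 20 higher genes, without *zmnrt1.1b* KCl replicate 3 there were 63 and 27, without *zmnrt1.1b* KCl replicate 4 there were 308 and 49, without *zmnlp3.1* KCl replicate 3 there were 181 and 37, and over all such fits 37 to 1481 and 20 to 408. The KCl counts of gene lists further below come from the fit with all libraries only. Of the 904 genes lower under KNO3, 272 (30.1%) were also lower under KCl, where these make up 25.5% of the lower genes. Of the 409 genes higher under KNO3, 58 (14.2%) were also higher under KCl, where these make up 19.3% of the higher genes. In all, 343 genes passed the test under both treatments, 970 under KNO3 only and 1023 under KCl only. Passing in one treatment and missing in the other does not show that the difference changed. The test of the change itself (the interaction, the difference under KNO3 minus that under KCl over the 12 mutant libraries) was passed by 154 genes (0.635%) with a positive and 35 (0.144%) with a negative value. These counts depend on single libraries too, and ran from 42 to 245 and from 5 to 52 as each of the 12 was left out.

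**Figure D1:**
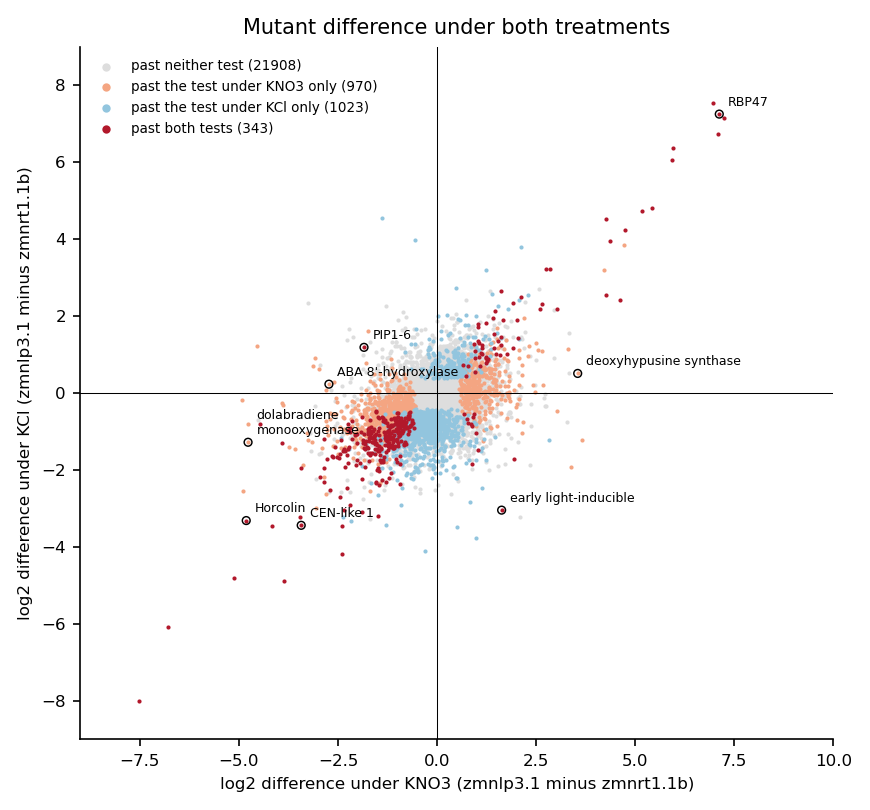
Each point is a gene, with its log2 difference (*zmnlp3.1* minus *zmnrt1.1b*) under KNO3 on the x axis and under KCl on the y axis, coloured by the test it passed. The 343 genes past both tests lie mostly along the diagonal, and the 970 and 1023 genes past 1 test only have colours of their own. Of the genes past the test under KNO3, 847 of the 904 lower and 286 of the 409 higher had the same sign under KCl. Of all 24244 tested genes, 12089 were below 0 under KCl.

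Of 3 tested nitrate reductases, which turn nitrate into nitrite as the first step of assimilation, 2 were lower in *zmnlp3.1*. The more abundant one, described as nitrate reductase [NAD(P)H] (Zm00001d018206, chromosome 5, 216589277 to 216592402 of B73 RefGen_v4), stood at 638, 417 and 423 FPKM in the *zmnrt1.1b* libraries and 148, 129.8 and 103 FPKM in those of *zmnlp3.1*. The groups were far apart, and the mean in *zmnrt1.1b* was 3.88 times that in *zmnlp3.1*. The log2 difference was −1.94 ± 0.221 (SE; adjusted p = 0.00502). In WT it stood at 747 to 1016 FPKM under KNO3 and 48.3 to 73.5 FPKM under KCl.
A second gene, nitrate reductase [NADH] 1 (Zm00001d031769, chromosome 1, 201195222 to 201199817), stood at 55.9, 30.9 and 30.04 FPKM in the *zmnrt1.1b* libraries and 17.7, 14.2 and 12.04 FPKM in those of *zmnlp3.1*. Again all *zmnlp3.1* libraries were below all *zmnrt1.1b* libraries, with a difference of −1.36 ± 0.259 (SE; adjusted p = 0.0245). It passed the test in 4 of 6 leave-one-out fits (each without 1 library), with an adjusted p of up to 0.0921 (without *zmnlp3.1* replicate 4), whereas the NAD(P)H gene passed in each of them. The third tested member, another nitrate reductase [NADH] 1 (Zm00001d049995), stood at 167, 91.7 and 103 FPKM in the *zmnrt1.1b* libraries and 92.4, 79.1 and 67.1 FPKM in those of *zmnlp3.1* and overlapped between the groups (log2 difference −0.56, adjusted p = 0.202). Under KCl the differences of the 3 genes were −0.93, −1.08 and −0.26, none of them past the test, and no interaction was past the test. Of 10 genes in this list, 3 were tested and 2 were lower.

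Nitrite reductase, the plastid enzyme that turns nitrite into ammonium, did not pass the test in any of 4 tested genes. The most abundant one (Zm00001d018161) stood at 1115, 697 and 801 FPKM in the *zmnrt1.1b* libraries and 683, 662 and 485 FPKM in those of *zmnlp3.1*, with a difference of −0.50 ± 0.237 (SE; adjusted p = 0.247). The *zmnrt1.1b* libraries were all above the *zmnlp3.1* libraries, but the lowest of the former and the highest of the latter nearly met, and *zmnrt1.1b* replicate 2 was the highest. The other 3 had differences of −0.41, −0.08 and 0.52. The first and last of these overlap on the chromosome, so that reads may be split between them. The 4 tested genes of siroheme synthesis, which makes the cofactor of nitrite reductase, had no call either and a median difference of −0.02.

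**Figure D2:**
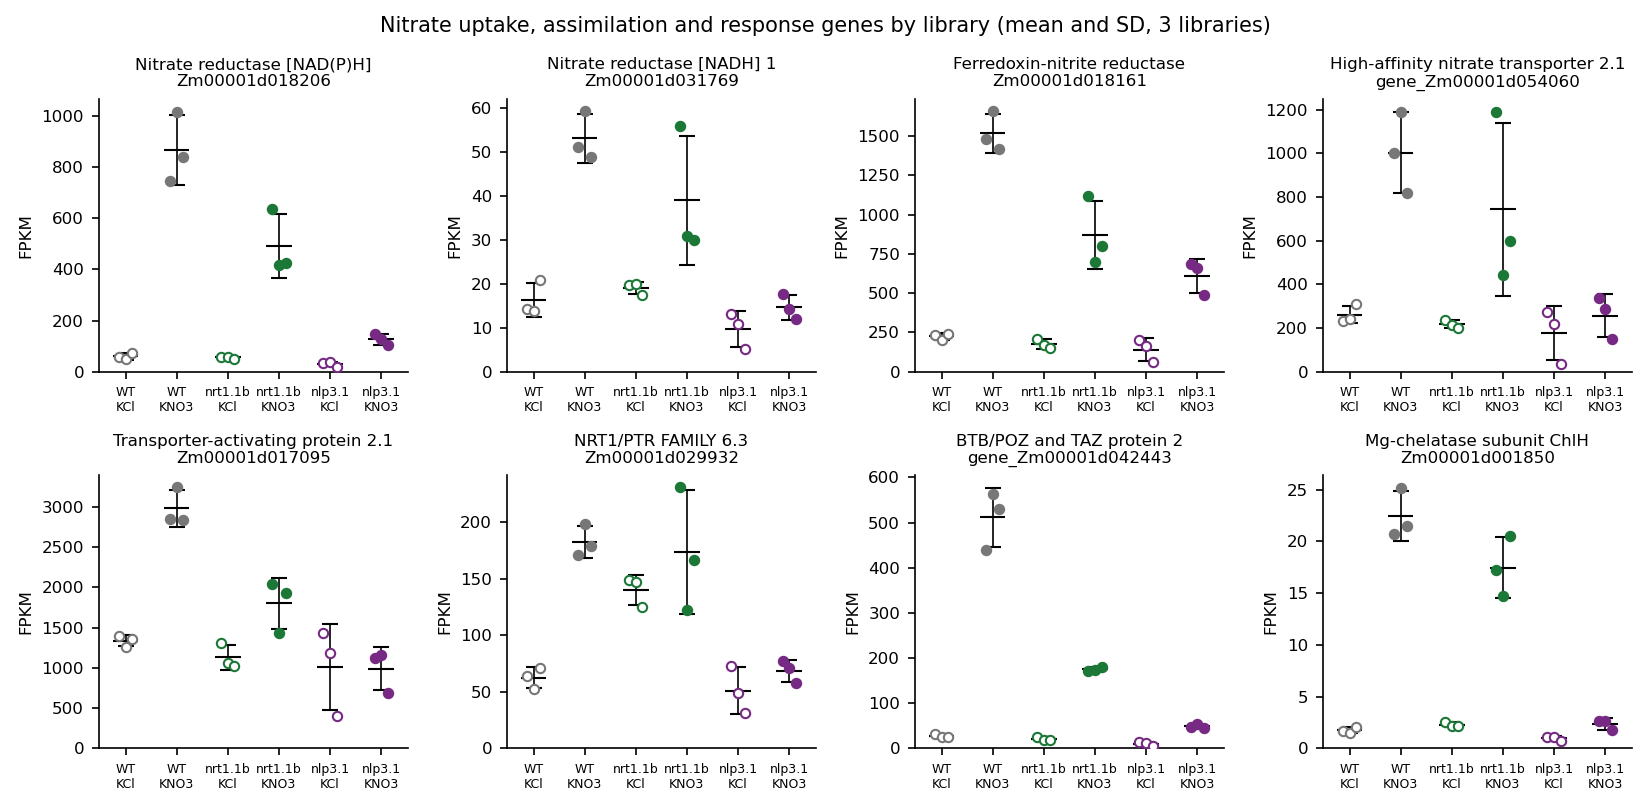
Points are the FPKM of single libraries (y axis, from 0) in each of the 6 groups (x axis) for genes of nitrate uptake, reduction and response, with the mean and SD of each group of 3 libraries. Under KNO3 the 3 *zmnlp3.1* libraries of nitrate reductase [NAD(P)H] and of BT2 sit below the 3 *zmnrt1.1b* libraries, while the groups of nitrite reductase nearly meet.

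High-affinity nitrate transport is done by NRT2 proteins together with the partner protein NAR2. Of 6 tested genes, 1 passed the test, and it was higher in *zmnlp3.1*. NRT2.4 (Zm00001d044504) stood at 17.4, 14.5 and 11.7 FPKM in the *zmnrt1.1b* libraries and 24.1, 23.5 and 26.8 FPKM in those of *zmnlp3.1*, a difference of 0.78 ± 0.173 (SE; adjusted p = 0.0399). It passed in 1 of 6 leave-one-out fits, with an adjusted p of up to 0.151 (without *zmnlp3.1* replicate 4). A pair of near copies described as NRT2.1 pointed the other way without passing. gene_Zm00001d054060 stood at 1191, 442 and 598 FPKM in the *zmnrt1.1b* libraries and 336, 287 and 149 FPKM in those of *zmnlp3.1* (log2 difference −1.48, adjusted p = 0.0738), and gene_Zm00001d054057 at 969, 359 and 501 FPKM in the *zmnrt1.1b* libraries and 289, 279.8 and 150.5 FPKM in those of *zmnlp3.1* (log2 difference −1.28, adjusted p = 0.0945). The spread within *zmnrt1.1b* was wide, with replicate 2 on top, and reads may be shared between the copies. NAR2.1 (Zm00001d017095) had 2036, 1437 and 1926 FPKM in the *zmnrt1.1b* libraries and 1120.2, 1164 and 688 FPKM in those of *zmnlp3.1* (log2 difference −0.88, adjusted p = 0.0945). The remaining members, NRT2.3 (Zm00001d011679) and a second NAR2 gene (Zm00001d003287), had differences of −0.88 and 0.43, with no call.

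The NRT1/PTR family (NPF) takes in low-affinity nitrate transporters and transporters of peptides and hormones. Of 47 tested members, 6 were lower (12.8%, against 3.73% of all genes) and 1 was higher (2.13%, against 1.69%) in *zmnlp3.1*, with a median of −0.26. Leaving out 1 library at a time left 1 to 5 lower genes, so this count is not stable. The list holds 3 genes described as NPF6.3, the Arabidopsis name of NRT1.1. The first of them (Zm00001d029932, chromosome 1, 94940936 to 94945167) stood at 231, 122 and 167 FPKM in the *zmnrt1.1b* libraries and 77.04, 70.9 and 57.8 FPKM in those of *zmnlp3.1*. The groups did not overlap, and the difference was −1.30 ± 0.237 (SE; adjusted p = 0.0212). It passed in 3 of 6 leave-one-out fits, with an adjusted p of up to 0.0861 (without *zmnlp3.1* replicate 4). It was also lower under KCl, with a difference of −1.54 (adjusted p = 0.031), with 148, 147 and 125 FPKM in the *zmnrt1.1b* libraries and 73.01, 48.6 and 31.2 FPKM in those of *zmnlp3.1*. In WT it stood at 171 to 198 FPKM under KNO3 and 52.6 to 71.1 FPKM under KCl. The other NPF6.3 genes overlapped between the mutants, with 117, 73.99 and 83.6 FPKM in the *zmnrt1.1b* libraries and 77.9, 76.5 and 75.5 FPKM in those of *zmnlp3.1* for Zm00001d024587 (log2 difference −0.23, adjusted p = 0.49), and a difference of −0.19 (adjusted p = 0.815) for Zm00001d027285. Which of them, if any, is *ZmNRT1.1B* is not given in the sources used here.

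Among the other lower NPF genes, NPF8.1 (Zm00001d012138) stood at 11.9, 17.7 and 12.2 FPKM in the *zmnrt1.1b* libraries and 5.08, 5.70 and 6.65 FPKM in those of *zmnlp3.1*, a difference of −1.23 (adjusted p = 0.0147). It passed in each fit with 1 library left out. NPF7.3 (Zm00001d017666), which in Arabidopsis loads nitrate into the xylem, stood at 165, 271 and 178 FPKM in the *zmnrt1.1b* libraries and 84.6, 90.7 and 96.8 FPKM in those of *zmnlp3.1* (log2 difference −1.14, adjusted p = 0.0194), and passed in 2 of 6 leave-one-out fits, with an adjusted p of up to 0.0656 (without *zmnlp3.1* replicate 4). The single higher member was NPF5.6 (Zm00001d034674), with 7.79, 7.49 and 5.88 FPKM in the *zmnrt1.1b* libraries and 13.2, 13.6 and 19.3 FPKM in those of *zmnlp3.1* (adjusted p = 0.0205), a mean 2.18 times that in *zmnrt1.1b*, which passed in 4 of 6 leave-one-out fits, with an adjusted p of up to 0.0743 (without *zmnlp3.1* replicate 4).

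The NLPs themselves did not pass the test. All 9 tested NLP genes had a difference below 0, with a median of −0.23. The gene nearest to the threshold was an NLP3 gene (Zm00001d009017), with 13.96, 11.7 and 12.3 FPKM in the *zmnrt1.1b* libraries and 9.46, 8.32 and 8.10 FPKM in those of *zmnlp3.1*. All *zmnlp3.1* libraries lay below all *zmnrt1.1b* libraries, and the difference was −0.54 ± 0.149 (SE; adjusted p = 0.0734). The other NLP3 gene (Zm00001d039266) overlapped between the groups (log2 difference −0.14, adjusted p = 0.715). An edit in the coding part of a gene need not change its RNA level, so neither value checks the genotype. The 1 tested gene of the NIGT1/HHO repressors, which limit nitrate responses in Arabidopsis and rice, had a difference of 0.06 (adjusted p = 0.88).

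BT2, a BTB and TAZ domain protein that in Arabidopsis lowers nitrate uptake genes when N is scarce, passed the test in 1 of 3 maize genes so described. This gene (gene_Zm00001d042443, chromosome 3, 167612707 to 167616683) stood at 170.4, 174 and 180.4 FPKM in the *zmnrt1.1b* libraries and 48.2, 54.8 and 44.1 FPKM in those of *zmnlp3.1*. The replicates of each mutant lay close together, and the mean in *zmnrt1.1b* was 3.57 times that in *zmnlp3.1*. The difference was −1.84 ± 0.142 (SE; adjusted p = 0.000952), and it passed in each fit with 1 library left out. Under KCl it was −1.07 (adjusted p = 0.0873). In WT it stood at 439 to 564 FPKM under KNO3 and 24.1 to 30.6 FPKM under KCl. The other 2 tested genes described as BT2 had differences of 0.23 and 0.03, with no call.

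LOB domain (LBD) factors include LBD37, which in Arabidopsis represses genes of N uptake and of anthocyanin synthesis. Of 22 tested, 5 were lower and none higher in *zmnlp3.1*, 22.7% against 3.73% of all genes, with a median of −0.55. Of the members, 4 to 5 were lower as each library was left out. LBD37 (Zm00001d033347) stood at 67.1, 80.5 and 76.7 FPKM in the *zmnrt1.1b* libraries and 27.8, 33.4 and 28.7 FPKM in those of *zmnlp3.1*, a difference of −1.32 (adjusted p = 0.00458). Of the 5, 3 are described as LBD41, a factor that responds to low oxygen in Arabidopsis. The one with the largest difference (gene_Zm00001d029506) stood at 147, 109 and 158 FPKM in the *zmnrt1.1b* libraries and 25.9, 44.1 and 30.6 FPKM in those of *zmnlp3.1*, a difference of −2.06 (adjusted p = 0.00458). The second (gene_Zm00001d010751) stood at 116, 144 and 167 FPKM in the *zmnrt1.1b* libraries and 40.8, 47.3 and 41.02 FPKM in those of *zmnlp3.1* (log2 difference −1.71, adjusted p = 0.00323). Each of these 3 genes passed with any library left out. The third LBD41 gene (Zm00001d038717) and LBD4 (Zm00001d013625) had differences of −1.68 (adjusted p = 0.0105) and −0.93 (adjusted p = 0.0266). Under KCl, where 4.39% of all genes were lower, 4 of the 22 were lower, 3 of them the same genes.

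NAC factors, a large family of regulators of development and stress, had 10 lower and 3 higher members of 82 tested, with a median of −0.21. These are 12.2% and 3.66%, against 3.73% and 1.69% of all genes. As each library was left out, 4 to 9 were lower and 0 to 3 higher. NAC67 (gene_Zm00001d019207) stood at 127, 147 and 146 FPKM in the *zmnrt1.1b* libraries and 42.4, 51.4 and 46.01 FPKM in those of *zmnlp3.1* (log2 difference −1.59, adjusted p = 0.00251). It was also lower under KCl, with a difference of −1.16 (adjusted p = 0.00894). A pair of NAC100 genes, Zm00001d006053 and gene_Zm00001d051140, had differences of −1.06 (adjusted p = 0.0081) and −1.65 (adjusted p = 0.0123). These 3 genes passed with any library left out.

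WRKY factors, known for defence and stress responses, had 13 lower and 2 higher members of 88 tested, with a median of −0.45. These are 14.8% and 2.27%, against 3.73% and 1.69% of all genes. The lower count ranged from 1 to 10 with 1 library left out. Under KCl, where 4.39% of all genes were lower, 27 members were lower and none higher, 6 of them lower under both treatments. The difference between these counts was not tested. WRKY9 (gene_Zm00001d011237) stood at 9.26, 9.06 and 11.9 FPKM in the *zmnrt1.1b* libraries and 3.45, 4.17 and 2.26 FPKM in those of *zmnlp3.1*, a difference of −1.61 (adjusted p = 0.0116), and passed with any library left out. WRKY75 (Zm00001d007329), a regulator of phosphate starvation responses in Arabidopsis, had a difference of −1.70 (adjusted p = 0.0166), and passed in 4 of 6 leave-one-out fits, with an adjusted p of up to 0.0728 (without *zmnrt1.1b* replicate 5). WRKY27 (gene_Zm00001d016052) had a difference of −0.91 (adjusted p = 0.0144), and passed in 4 of 6 leave-one-out fits, with an adjusted p of up to 0.0676 (without *zmnlp3.1* replicate 4).

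Of 48 tested bZIP factors 3 were lower (6.25%, against 3.73% of all genes) and 1 was higher (2.08%, against 1.69%), with 1 to 3 lower as each library was left out. bZIP12 (Zm00001d010168) stood at 13.3, 17.9 and 19.3 FPKM in the *zmnrt1.1b* libraries and 2.35, 4.69 and 4.28 FPKM in those of *zmnlp3.1*, a difference of −2.17 ± 0.273 (SE; adjusted p = 0.00685), which passed with any library left out. bZIP53 (gene_Zm00001d028879) and bZIP19 (Zm00001d016154) had differences of −0.90 (adjusted p = 0.0266) and 0.75 (adjusted p = 0.0226), and passed in 2 of 6 leave-one-out fits, with an adjusted p of up to 0.103 (without *zmnlp3.1* replicate 4), and in 2 of 6 leave-one-out fits, with an adjusted p of up to 0.106 (without *zmnlp3.1* replicate 4). Kinases of the CIPK group work with calcium sensors, and 1 of them phosphorylates NRT1.1 in Arabidopsis. Of 48 tested CBL and CIPK genes 4 were lower (8.33%), 0 to 2 with 1 library left out, and 1 was higher (2.08%, close to the 1.69% of all genes). CIPK6 (gene_Zm00001d020497) and CIPK29 (gene_Zm00001d022451) had differences of −0.91 (adjusted p = 0.0208) and −1.02 (adjusted p = 0.0216) and lost the call without any 1 of the *zmnlp3.1* libraries, with highest adjusted p of 0.0897 and 0.0649. The higher one, CIPK31, is described with the genes that changed between treatments.

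Nitrate-responsive genes can be defined without the mutants, from the 6 WT libraries. Of 24184 genes tested in WT, 775 (3.2%) were induced and 736 (3.04%) repressed by KNO3 past both thresholds. In the mutant comparison 715 of the induced genes were tested, and 158 were lower and 19 higher in *zmnlp3.1*. That is 22.1% lower, against 3.73% of all tested genes. The median difference was −0.50, and 561 (78.5%) were below 0. The count of lower genes was 58 without *zmnlp3.1* replicate 4, 59 without *zmnrt1.1b* replicate 5, and up to 136 without one of the others. Under KCl, where 4.39% of all genes were lower and 1.24% higher, 86 of the same 715 were lower and 12 higher, with a median of −0.38. Of the 715, 41 were lower under both treatments, against 272 of all 24244 tested genes. Of the 158 lower genes, 12 also had a lower difference under KNO3 than under KCl by the interaction test, against 26 of all 904 lower genes.

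The genes that nitrate repressed in WT were also more often lower than higher. Of 690 tested, 77 (11.2%) were lower and 30 (4.35%) higher in *zmnlp3.1*, against 3.73% and 1.69% of all genes, with a median of −0.23. The lower count ranged from 19 to 81 with 1 library left out. Under KCl, where 4.39% of all genes were lower and 1.24% higher, 94 were lower and 17 higher, with a median of −0.44.

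**Figure D3:**
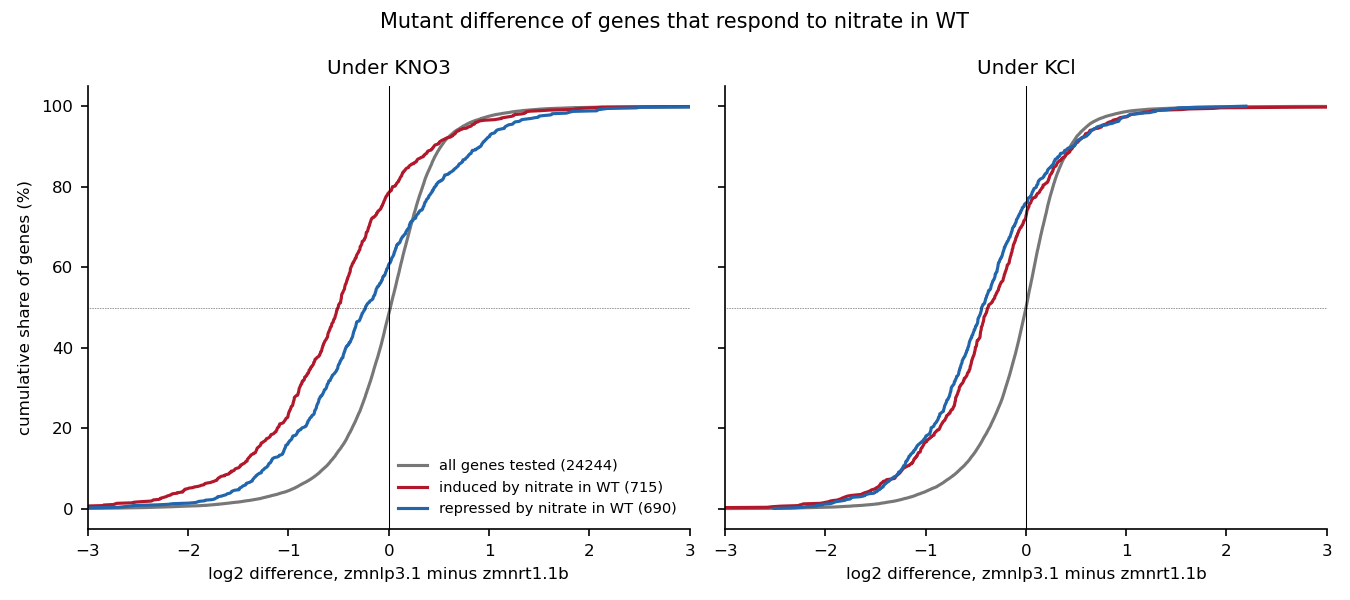
The lines give the cumulative share of genes (y axis, percent) up to each log2 difference, *zmnlp3.1* minus *zmnrt1.1b* (x axis), under KNO3 and under KCl, for genes induced in WT, repressed in WT and all genes tested. Under KNO3 the line of the induced genes crosses the middle of the y axis at −0.50 and that of the repressed genes at −0.23, and under KCl at −0.38 and −0.44.

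Ammonium is built into glutamine and glutamate by glutamine synthetase and glutamate synthase. Of 19 tested genes of this group 2 were lower (10.5%, against 3.73% of all genes) and none higher, with a median of −0.47. Glutamine synthetase root isozyme 1 (gene_Zm00001d028260) stood at 738, 711 and 963 FPKM in the *zmnrt1.1b* libraries and 479, 368 and 221 FPKM in those of *zmnlp3.1* (log2 difference −1.23, adjusted p = 0.0459), and ferredoxin-dependent glutamate synthase (Zm00001d022388) had a difference of −0.88 (adjusted p = 0.0441). Each passed in 1 of the 6 fits that left out 1 library, with highest adjusted p of 0.141 and 0.154. Plastid reductant, which nitrite reductase needs, showed 1 lower gene of 27 (3.70%, close to the 3.73% of all genes), ferredoxin-6 (Zm00001d010136), with 111, 92.9 and 98.8 FPKM in the *zmnrt1.1b* libraries and 46.4, 63.5 and 44.8 FPKM in those of *zmnlp3.1* (log2 difference −0.98, adjusted p = 0.0187), and it passed in 3 of 6 leave-one-out fits, with an adjusted p of up to 0.0861 (without *zmnlp3.1* replicate 4). Organic acid metabolism, which gives carbon skeletons, had 2 lower (3.77%) and 1 higher (1.89%) genes of 53, close to the shares of all genes. The higher one was phosphoenolpyruvate carboxylase kinase 1 (gene_Zm00001d003068), which activates the enzyme that fixes carbon into oxaloacetate, with 0.608, 0.403 and 0.535 FPKM in the *zmnrt1.1b* libraries and 1.65, 3.04 and 2.81 FPKM in those of *zmnlp3.1* (log2 difference 2.05, adjusted p = 0.0208), and it passed in 2 of 3 leave-one-out fits, with an adjusted p of up to 0.0625 (without *zmnrt1.1b* replicate 5). This gene was tested only because it reached 1 FPKM in the *zmnlp3.1* libraries. Pyruvate kinase (gene_Zm00001d026619) and a putative aconitate hydratase (gene_Zm00001d049409) were lower, with differences of −0.73 (adjusted p = 0.0404) and −0.75 (adjusted p = 0.0449). Each passed in 1 of the 6 fits that left out 1 library, with highest adjusted p of 0.162 and 0.172.

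Of 93 genes of sucrose, trehalose and starch metabolism 6 were lower (6.45%, against 3.73% of all genes) and none higher, with 2 to 4 lower as each library was left out. Trehalose-phosphate phosphatase 7 (gene_Zm00001d020272), which removes the phosphate from the sugar signal trehalose 6-phosphate, stood at 10.4, 8.45 and 11.5 FPKM in the *zmnrt1.1b* libraries and 2.65, 2.25 and 1.59 FPKM in those of *zmnlp3.1*. The groups were well apart, with a difference of −2.19 ± 0.230 (SE; adjusted p = 0.00394) that passed with any library left out. A galactinol-sucrose galactosyltransferase (Zm00001d019163), an enzyme of raffinose synthesis, was lower under KNO3, with a difference of −1.37 (adjusted p = 0.00762) and under KCl, with a difference of −1.78 (adjusted p = 0.00541). Beta-fructofuranosidase 7 (Zm00001d001943), a cell wall invertase, had a difference of −0.78 (adjusted p = 0.0245), and passed in 2 of 6 leave-one-out fits, with an adjusted p of up to 0.108 (without *zmnlp3.1* replicate 4). Of 12 carbonic anhydrases 1 (8.33%, against 3.73% of all genes) was lower, alpha carbonic anhydrase 7 (Zm00001d050011), with a difference of −1.04 (adjusted p = 0.0166), which passed in 4 of 6 leave-one-out fits, with an adjusted p of up to 0.0701 (without *zmnlp3.1* replicate 4).

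Fermentation genes, which keep glycolysis running when oxygen is short, were often lower in *zmnlp3.1*. Of 14 tested genes 7 were lower and none higher, where 3.73% of all genes were lower, and all 14 had a difference below 0, with a median of −0.82. Pyruvate decarboxylase 2 (gene_Zm00001d028759) stood at 172, 159 and 192 FPKM in the *zmnrt1.1b* libraries and 93.9, 109 and 89.5 FPKM in those of *zmnlp3.1*, a difference of −0.84 ± 0.153 (SE; adjusted p = 0.0212). Alcohol dehydrogenase 2 (gene_Zm00001d049059) stood at 179, 168 and 238 FPKM in the *zmnrt1.1b* libraries and 115, 102 and 73.9 FPKM in those of *zmnlp3.1* (log2 difference −1.02, adjusted p = 0.0326). Of a pair of neighbouring L-lactate dehydrogenase genes that may share reads, gene_Zm00001d014944 stood at 159.9, 224 and 265 FPKM in the *zmnrt1.1b* libraries and 118, 116 and 119 FPKM in those of *zmnlp3.1* (log2 difference −0.85, adjusted p = 0.046) and gene_Zm00001d014945 at 44.7, 40.5 and 75.6 FPKM in the *zmnrt1.1b* libraries and 10.7, 30.4 and 10.6 FPKM in those of *zmnlp3.1* (log2 difference −1.77, adjusted p = 0.046). In each of these 4 genes the groups did not overlap.
The abundant alcohol dehydrogenase 1 (gene_Zm00001d033931) overlapped between the groups, with 358, 409 and 576 FPKM in the *zmnrt1.1b* libraries and 249, 369.6 and 241 FPKM in those of *zmnlp3.1* (log2 difference −0.64, adjusted p = 0.161). The other lower members were a second pyruvate decarboxylase 2 gene (gene_Zm00001d008651), with a difference of −1.33 (adjusted p = 0.0198), and a pair of alcohol dehydrogenase-like 7 genes, Zm00001d027995 and Zm00001d027996, with differences of −1.55 (adjusted p = 0.017) and −0.81 (adjusted p = 0.0404).
The group count was 0 without *zmnrt1.1b* replicate 5 or without *zmnlp3.1* replicate 4, and at most 5 without one of the others. Under KCl, where 4.39% of all genes were lower, 3 of the 14 were lower, with a median of −0.26. The summed level of the 7 alcohol dehydrogenase 1 and pyruvate decarboxylase genes, of which 4 reached 1 FPKM and 2 were at 0, was 553 to 805 FPKM in *zmnrt1.1b* and 351 to 518 FPKM in *zmnlp3.1*. Under KCl the sums overlapped, at 703 to 886 and 681 to 946 FPKM. The part of oxygen supply in the KNO3 difference was not tested.

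The rule for the largest decreases and increases took genes with a description that averaged 5 FPKM or more, did not overlap between the groups and passed both thresholds, which 436 met. Genes with no description are left out, among them Zm00001d008211 with a difference of −7.52. That gene had 1193 reads in the *zmnrt1.1b* KNO3 libraries and 4 in those of *zmnlp3.1*. The largest decrease by the rule was of a gene described as horcolin (Zm00001d023516, chromosome 10, 8543363 to 8544872), a mannose-binding lectin in barley. It stood at 7.82, 23.6 and 18.7 FPKM in the *zmnrt1.1b* libraries and 1.43, 0.217 and 0.226 FPKM in those of *zmnlp3.1*. Its mean in *zmnrt1.1b* was 26.8 times that in *zmnlp3.1*, with a difference of −4.82 ± 0.639 (SE; adjusted p = 0.00762) under KNO3 and −3.32 (adjusted p = 0.0435) under KCl. It was among the genes that nitrate induced in WT, with 9.18 to 30.4 FPKM under KNO3 and 2.93 to 5.44 FPKM under KCl.
Dolabradiene monooxygenase (Zm00001d014136, chromosome 5, 33745314 to 33746963), a maize enzyme of diterpenoid defence compounds of the root, came next. It stood at 36.1, 8.19 and 16.1 FPKM in the *zmnrt1.1b* libraries and 0.627, 0.446 and 0.501 FPKM in those of *zmnlp3.1*, a difference of −4.77 ± 0.465 (SE; adjusted p = 0.003). It was tested only because it reached 1 FPKM in the *zmnrt1.1b* libraries. Under KCl it had 7.56, 9.09 and 4.72 FPKM in the *zmnrt1.1b* libraries and 4.55, 2.49 and 1.87 FPKM in those of *zmnlp3.1* and a difference of −1.28 (adjusted p = 0.0843), and the change between treatments was −3.49 (adjusted p = 0.0364). Indolin-2-one monooxygenase (Zm00001d025200), a maize enzyme of benzoxazinoid synthesis, stood at 23.8, 12.99 and 16.5 FPKM in the *zmnrt1.1b* libraries and 1.54, 1.55 and 2.64 FPKM in those of *zmnlp3.1* (log2 difference −3.15, adjusted p = 0.00234). Both are P450 enzymes of defence compounds, and the groups did not overlap in either.

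A CEN-like protein 1 gene (gene_Zm00001d025346), of the family of flowering regulators that includes FT, stood at 12.4, 12.5 and 9.54 FPKM in the *zmnrt1.1b* libraries and 0.731, 1.40 and 0.876 FPKM in those of *zmnlp3.1*. The difference was close in size with and without nitrate, −3.43 (adjusted p = 0.000952) and −3.44 (adjusted p = 0.0147). Laccase-19 (Zm00001d040248), one of the oxidases that link lignin units, stood at 15.6, 8.16 and 11.5 FPKM in the *zmnrt1.1b* libraries and 1.48, 1.21 and 1.65 FPKM in those of *zmnlp3.1* (log2 difference −2.90, adjusted p = 0.00234). Magnesium-chelatase subunit ChlH (Zm00001d001850), which puts magnesium into the chlorophyll precursor, stood at 17.2, 14.7 and 20.5 FPKM in the *zmnrt1.1b* libraries and 2.68, 2.68 and 1.72 FPKM in those of *zmnlp3.1*. The difference was −2.85 ± 0.221 (SE; adjusted p = 0.000952), under KCl it was −1.19 (adjusted p = 0.0433), and the change between treatments was −1.66 (adjusted p = 0.0448). Abscisic acid 8′-hydroxylase 3 (Zm00001d034769), which starts the breakdown of abscisic acid, stood at 21.7, 19.99 and 31.01 FPKM in the *zmnrt1.1b* libraries and 3.81, 4.63 and 2.42 FPKM in those of *zmnlp3.1* (log2 difference −2.73, adjusted p = 0.003). Under KCl its groups stood at 5.95, 3.86 and 4.27 FPKM in the *zmnrt1.1b* libraries and 7.84, 5.27 and 3.87 FPKM in those of *zmnlp3.1*, a difference of 0.23 (adjusted p = 0.625), and the change between treatments was −2.96 (adjusted p = 0.00902). These 4 genes, horcolin and the indolin-2-one monooxygenase passed with any library left out, and the dolabradiene monooxygenase in the 3 leave-one-out fits that could test it.
A DREB1-type factor (gene_Zm00001d006170) of cold and drought responses had a difference of −2.84 (adjusted p = 0.0187). The last of these decreases were a pair of early nodulin-93 genes that may share reads, gene_Zm00001d045390 with 4.78, 8.61 and 12.4 FPKM in the *zmnrt1.1b* libraries and 0.425, 2.79 and 1.02 FPKM in those of *zmnlp3.1* (log2 difference −2.77, adjusted p = 0.0346) and gene_Zm00001d045392 with 54.9, 93.2 and 169.8 FPKM in the *zmnrt1.1b* libraries and 7.29, 27.8 and 13.7 FPKM in those of *zmnlp3.1* (log2 difference −2.75, adjusted p = 0.0225). The first passed in 1 of 6 leave-one-out fits, with an adjusted p of up to 0.111 (without *zmnrt1.1b* replicate 5), the second in 3 of 6 leave-one-out fits, with an adjusted p of up to 0.0727 (without *zmnlp3.1* replicate 4), and the DREB1 gene in 4 of 6 leave-one-out fits, with an adjusted p of up to 0.0644 (without *zmnrt1.1b* replicate 5).

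By the same rule, which leaves out genes with no description (1 of them with a difference of 7.24), the largest increase was in a gene at close to 0 in *zmnrt1.1b*. RBP47 (Zm00001d021149, chromosome 7, 144128263 to 144129613), described from a tobacco protein that binds poly(A) RNA, stood at 0, 0 and 0.111 FPKM in the *zmnrt1.1b* libraries and 22.2, 15.9 and 15.8 FPKM in those of *zmnlp3.1*. It was tested only because it reached 1 FPKM in the *zmnlp3.1* libraries. The recovered reads were 1 in all *zmnrt1.1b* libraries and 498 in all *zmnlp3.1* libraries, a ratio of 486 with an exact 95% interval of 86.8 to 19233 that covers counting error only. It was as far apart under KCl, with 0, 0 and 0.115 FPKM in the *zmnrt1.1b* libraries and 19.4, 22.5 and 17.3 FPKM in those of *zmnlp3.1*. In WT it ranged from 3.18 to 15.5 FPKM under KNO3 and 4.21 to 12.3 FPKM under KCl, so that WT libraries varied among themselves.
Deoxyhypusine synthase (Zm00001d003994), which makes the modified residue of a translation factor, stood at 0.841, 1.08 and 1.04 FPKM in the *zmnrt1.1b* libraries and 9.05, 16.9 and 12.9 FPKM in those of *zmnlp3.1*. Its difference was 3.55 ± 0.256 (SE; adjusted p = 0.000757), against 0.51 (adjusted p = 0.424) under KCl, and the change between treatments was 3.04 (adjusted p = 0.0205). A transporter similar to Arabidopsis At3g43790 (Zm00001d040534) was higher under both treatments, with differences of 3.02 (adjusted p = 0.00731) and 2.19 (adjusted p = 0.000657). In the limma fit with all 18 libraries its KNO3 difference was not past the test (adjusted p = 0.0978). Also higher under both treatments was alpha-terpineol synthase (Zm00001d035682), a monoterpene enzyme, with 2.32, 2.35 and 3.01 FPKM in the *zmnrt1.1b* libraries and 16.9, 15.05 and 15.6 FPKM in those of *zmnlp3.1*, a difference of 2.59 (adjusted p = 0.00058) under KNO3 and 2.19 (adjusted p = 0.00486) under KCl.

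A pair of near copies of ZRP4, an O-methyltransferase first described in maize roots, were higher and may share reads. Zm00001d038703 stood at 0.664, 1.40 and 2.92 FPKM in the *zmnrt1.1b* libraries and 8.65, 20.01 and 10.4 FPKM in those of *zmnlp3.1* (log2 difference 3.02, adjusted p = 0.015), and Zm00001d038699 at 3.71, 5.84 and 8.15 FPKM in the *zmnrt1.1b* libraries and 22.2, 40.8 and 41.2 FPKM in those of *zmnlp3.1* (log2 difference 2.55, adjusted p = 0.00706). Jasmonate-induced oxygenase 2 (Zm00001d047744), which inactivates jasmonate in Arabidopsis, stood at 1.57, 2.38 and 3.98 FPKM in the *zmnrt1.1b* libraries and 7.99, 20.3 and 17.2 FPKM in those of *zmnlp3.1* (log2 difference 2.47, adjusted p = 0.0156). Patatin-like protein 1 (gene_Zm00001d048841), a lipid hydrolase, stood at 10.9, 6.22 and 10.2 FPKM in the *zmnrt1.1b* libraries and 30.5, 44.7 and 45.6 FPKM in those of *zmnlp3.1* (log2 difference 2.15, adjusted p = 0.00524), and its change between treatments was 3.19 (adjusted p = 0.00717). The oxygenase passed in 5 of 6 leave-one-out fits, with an adjusted p of up to 0.0607 (without *zmnlp3.1* replicate 4). The remaining genes of the 10 were RADIALIS-like 6 (gene_Zm00001d017782) and a UPF0481 protein (Zm00001d045130). RADIALIS-like 6, a MYB-type factor, had a difference of 2.13 (adjusted p = 0.0167) and passed in 2 of 6 leave-one-out fits, with an adjusted p of up to 0.0536 (without *zmnrt1.1b* replicate 5). The UPF0481 gene had a difference of 1.99 (adjusted p = 0.00748), and its change between treatments was 2.35 (adjusted p = 0.0175).

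Some genes differed by much between the mutants whatever the treatment. With an absolute log2 difference over 3 past the test in both treatments, a size chosen after the values were seen, there were 19 such genes, 11 higher and 8 lower in *zmnlp3.1*. Not all were off in the low mutant, where the highest library reached 2.24 FPKM. Only 4 have a description, RBP47, horcolin, the CEN-like gene and an ADP-ribosylation factor 1 gene (Zm00001d023657), and 10 carry identifiers of newly assembled transcripts. Of the 19 genes, 8 have another of the 19 within 10 kb. They form pairs on chromosomes 1, 7, 9 and 10, as RBP47 does with Zm00001d021150 on chromosome 7. The clearest pair is Zm00001d045629 and Zm00001d045631 on chromosome 9, of which the first had 0 reads in all *zmnrt1.1b* KNO3 libraries and 1817 in those of *zmnlp3.1*, and the second had 3 and 1206. Over the WT libraries of both treatments, the lowest and the highest differed by over 10 times in 11 of the 19. This count includes differences between treatments. Horcolin, for example, had 2.93 to 5.44 FPKM under KCl and 9.18 to 30.4 FPKM under KNO3. It also includes low genes with a lowest library of 0, such as a transcript on chromosome 3 with 0 to 0.154 FPKM. The count therefore does not measure variation among WT replicates.

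Class III peroxidases, which act on the cell wall and on hydrogen peroxide, were more often higher than lower. Of 101 tested 10 (9.9%) were higher and 4 (3.96%) lower under KNO3, against 1.69% and 3.73% of all genes. The count of higher genes ranged from 3 to 10 with 1 library left out. Under KCl, where 1.24% of all genes were higher and 4.39% lower, 3 of the 101 were higher and 12 lower, with a median of −0.47. The interaction test was passed by 4 of the 101, all with a positive value. Peroxidase N (gene_Zm00001d014123) stood at 1.32, 1.53 and 0.806 FPKM in the *zmnrt1.1b* libraries and 5.46, 9.46 and 7.04 FPKM in those of *zmnlp3.1*, a difference of 2.50 (adjusted p = 0.00571). A second Peroxidase N gene (gene_Zm00001d028349), which may share reads with it, stood at 7.47, 13.7 and 8.80 FPKM in the *zmnrt1.1b* libraries and 24.1, 39.9 and 38.3 FPKM in those of *zmnlp3.1* (log2 difference 1.77, adjusted p = 0.0122). Peroxidase 72 (gene_Zm00001d003707), which takes part in lignification in Arabidopsis, had a difference of 1.25 (adjusted p = 0.0119), and passed in 5 of 6 leave-one-out fits, with an adjusted p of up to 0.0503 (without *zmnrt1.1b* replicate 5). Among 134 genes of phenylpropanoid, lignin and flavonoid synthesis 10 were lower (7.46%) and 6 higher (4.48%), with 4 to 13 and 0 to 9 as each library was left out. The lower ones included laccase-19 above, laccase-9 (gene_Zm00001d052243) with a difference of −1.63 (adjusted p = 0.00609), and laccase-15 (Zm00001d048658) with 3.58, 2.29 and 2.72 FPKM in the *zmnrt1.1b* libraries and 0.544, 0.233 and 0.243 FPKM in those of *zmnlp3.1* (log2 difference −2.80, adjusted p = 0.011). Laccase-15 was tested only because it reached 1 FPKM in the *zmnrt1.1b* libraries.
Of 102 genes for expansins and cellulose synthesis, which loosen and build the wall, 6 were lower (5.88%, against 3.73% of all genes) and 5 higher (4.90%, against 1.69%). With 1 library left out, 1 to 6 were lower and 0 to 11 higher. Expansin-like A3 (Zm00001d006360) and expansin-A7 (Zm00001d012957) were lower, with differences of −1.23 (adjusted p = 0.0122) and −1.65 (adjusted p = 0.0214). They passed in 5 of 6 leave-one-out fits, with an adjusted p of up to 0.0509 (without *zmnlp3.1* replicate 4), and in 4 of 6 leave-one-out fits, with an adjusted p of up to 0.0714 (without *zmnrt1.1b* replicate 5).

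Among genes of other nutrients, 4 of 37 for phosphate transport and starvation were lower (10.8%, against 3.73% of all genes) and 1 was higher (2.7%, against 1.69%). With 1 library left out 0 to 3 were lower. The higher one, an SPX domain membrane protein (Zm00001d017597), of a family that carries phosphate across the vacuole membrane, had 4.79, 3.80 and 4.25 FPKM in the *zmnrt1.1b* libraries and 9.42, 10.1 and 10.9 FPKM in those of *zmnlp3.1* (log2 difference 1.23, adjusted p = 0.0075). PHO1-2 (Zm00001d051945), of the family that loads phosphate into the xylem, and purple acid phosphatase 15 (gene_Zm00001d034839) were lower, with differences of −1.15 (adjusted p = 0.0404) and −1.09 (adjusted p = 0.0261). They passed in 1 of 6 leave-one-out fits, with an adjusted p of up to 0.12 (without *zmnrt1.1b* replicate 5), and in 3 of 6 leave-one-out fits, with an adjusted p of up to 0.101 (without *zmnlp3.1* replicate 4). Of 24 sulfate genes 2, both sulfate transporters, were lower (8.33%) and 1 was higher (4.17%), against 3.73% and 1.69% of all genes. Sulfate transporter 1.3 (Zm00001d050283) stood at 13.7, 14.3 and 23.4 FPKM in the *zmnrt1.1b* libraries and 4.62, 6.79 and 6.77 FPKM in those of *zmnlp3.1* (log2 difference −1.46, adjusted p = 0.0166), and sulfate transporter 3.5 (Zm00001d043614) had a difference of −1.43 (adjusted p = 0.0138), which passed in 4 of 6 leave-one-out fits, with an adjusted p of up to 0.0555 (without *zmnlp3.1* replicate 4). ATP sulfurylase 2 (gene_Zm00001d004513), the first enzyme of sulfate assimilation, was higher, with a difference of 1.03 (adjusted p = 0.04), and passed in 1 of 6 leave-one-out fits, with an adjusted p of up to 0.134 (without *zmnlp3.1* replicate 4).

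Of 58 potassium, chloride and anion channel genes 2 were lower (3.45%) and 2 higher (3.45%), against 3.73% and 1.69% of all genes. Potassium transporter 5 (gene_Zm00001d042244), of the high-affinity HAK type, stood at 26.3, 11.4 and 24.1 FPKM in the *zmnrt1.1b* libraries and 4.44, 5.74 and 6.08 FPKM in those of *zmnlp3.1* (log2 difference −1.83, adjusted p = 0.0162), and passed in 4 of 6 leave-one-out fits, with an adjusted p of up to 0.0603 (without *zmnrt1.1b* replicate 5). Potassium transporter 25 (gene_Zm00001d017925) had a difference of 0.81 (adjusted p = 0.0344), and passed in 1 of 6 leave-one-out fits, with an adjusted p of up to 0.13 (without *zmnlp3.1* replicate 4). Of 38 genes of iron, zinc and nicotianamine 2 were lower (5.26%, against 3.73% of all genes) and none higher. Nicotianamine synthase 3 (gene_Zm00001d033496), which makes the metal chelator nicotianamine, stood at 604, 215 and 311 FPKM in the *zmnrt1.1b* libraries and 70.8, 70.6 and 47.5 FPKM in those of *zmnlp3.1* (log2 difference −2.47, adjusted p = 0.00969). Deoxymugineic acid synthase 1 (gene_Zm00001d003524), which turns nicotianamine towards the iron carriers that grasses release, had a difference of −1.17 (adjusted p = 0.0129), and passed in 5 of 6 leave-one-out fits, with an adjusted p of up to 0.0516 (without *zmnrt1.1b* replicate 5). Both act in the same route, and the synthase was also lower under KCl, with a difference of −1.69 (adjusted p = 0.0281).

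Of 85 amino acid transporters and WAT1-related proteins 6 were higher (7.06%, against 1.69% of all genes) and 2 lower (2.35%, against 3.73%), with 2 to 9 higher as each library was left out. Amino acid permease 3 (Zm00001d050211) stood at 6.74, 6.87 and 6.69 FPKM in the *zmnrt1.1b* libraries and 12.8, 14.3 and 14.7 FPKM in those of *zmnlp3.1* (log2 difference 1.03, adjusted p = 0.0081). A pair of WAT1-related genes, gene_Zm00001d054081 and gene_Zm00001d033284, had differences of 1.43 (adjusted p = 0.00755) and 1.35 (adjusted p = 0.0153). The second of these passed in 4 of 6 leave-one-out fits, with an adjusted p of up to 0.0526 (without *zmnlp3.1* replicate 3). Of 42 DETOXIFICATION transporters, which export toxins and metabolites, 4 were lower (9.52%, against 3.73% of all genes) and 1 was higher (2.38%, against 1.69%), with 0 to 4 lower as each library was left out. The higher one, DETOXIFICATION 40 (gene_Zm00001d033061), stood at 0.2004, 0.325 and 0.323 FPKM in the *zmnrt1.1b* libraries and 2.24, 2.12 and 2.53 FPKM in those of *zmnlp3.1* (log2 difference 2.66, adjusted p = 0.0106). It was tested only because it reached 1 FPKM in the *zmnlp3.1* libraries. DETOXIFICATION 19 (gene_Zm00001d021569) and 49 (gene_Zm00001d017590) were lower, with differences of −1.25 (adjusted p = 0.0193) and −0.95 (adjusted p = 0.0205), and passed in 3 of 6 leave-one-out fits, with an adjusted p of up to 0.0771 (without *zmnlp3.1* replicate 4), and in 3 of 6 leave-one-out fits, with an adjusted p of up to 0.0855 (without *zmnlp3.1* replicate 4). Of 32 aquaporins 2 were lower (6.25%, against 3.73% of all genes). TIP4-1 (Zm00001d037779), a water channel of the vacuole membrane, had a difference of −1.23 (adjusted p = 0.00748), and PIP1-6 is described below with the genes that turned between treatments. Of 26 glutaredoxins 3 were lower (11.5%, against 3.73% of all genes) and none higher, with 2 to 4 lower as each library was left out. Some small glutaredoxins of Arabidopsis respond to nitrate. Glutaredoxin-C7 (Zm00001d037757) and glutaredoxin-S2 (gene_Zm00001d008843) had differences of −1.20 (adjusted p = 0.00685) and −1.60 (adjusted p = 0.0113), and passed with any library left out. Glutaredoxin-C4 (gene_Zm00001d017240) had a difference of −1.04 (adjusted p = 0.0296), and passed in 2 of 6 leave-one-out fits, with an adjusted p of up to 0.117 (without *zmnlp3.1* replicate 4).

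Cytokinins carry the signal of nitrate supply from root to shoot. Of 51 tested genes 4 were higher (7.84%, against 1.69% of all genes) and 2 lower (3.92%, close to the 3.73% of all genes), with 2 to 4 higher as each library was left out. Cytokinin hydroxylase (Zm00001d020418), which makes trans-zeatin types, stood at 2.82, 3.55 and 3.18 FPKM in the *zmnrt1.1b* libraries and 10.03, 15.01 and 12.1 FPKM in those of *zmnlp3.1* (log2 difference 1.91, adjusted p = 0.00337). The response regulator ORR10 (Zm00001d023242), part of the cytokinin signalling chain in rice, stood at 84.4, 87.8 and 90.1 FPKM in the *zmnrt1.1b* libraries and 196, 197 and 178 FPKM in those of *zmnlp3.1* (log2 difference 1.12, adjusted p = 0.00582). Both were also higher under KCl, with differences of 1.17 (adjusted p = 0.0245) and 1.25 (adjusted p = 0.0177). Cis-zeatin O-glucosyltransferase 1 (gene_Zm00001d000237), which stores cytokinin as a glucoside in maize, was lower, with 6.35, 3.53 and 3.69 FPKM in the *zmnrt1.1b* libraries and 1.08, 0.893 and 0.610 FPKM in those of *zmnlp3.1* (log2 difference −2.24, adjusted p = 0.0106). These 3 genes passed with any library left out. Of 124 auxin genes 5 were lower (4.03%) and 1 was higher (0.806%), which is close to or below the shares of all genes. With 1 library left out 0 to 2 were lower. IAA9 (gene_Zm00001d018414) and a pair of GH3 enzymes that conjugate auxin (Zm00001d043350 and Zm00001d006753) had differences of −0.95 (adjusted p = 0.023), −1.07 (adjusted p = 0.0244) and −1.29 (adjusted p = 0.0309). IAA9 passed in 2 of 6 leave-one-out fits, with an adjusted p of up to 0.0967 (without *zmnlp3.1* replicate 4). The GH3 genes passed in 3 of 6 leave-one-out fits, with an adjusted p of up to 0.0977 (without *zmnlp3.1* replicate 4), and in 1 of 6 leave-one-out fits, with an adjusted p of up to 0.103 (without *zmnlp3.1* replicate 4).

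Of 202 genes of jasmonate and ethylene 22 were lower (10.9%, against 3.73% of all genes) and 8 higher (3.96%, against 1.69%). As each library was left out, 3 to 17 were lower and 2 to 9 higher. Under KCl, where 4.39% of all genes were lower and 1.24% higher, 17 were lower and 1 higher. The TIFY (JAZ) proteins, repressors of the jasmonate response, included 2 higher genes, TIFY 10b (Zm00001d019692) with 4.74, 5.11 and 5.51 FPKM in the *zmnrt1.1b* libraries and 11.96, 15.3 and 12.9 FPKM in those of *zmnlp3.1* (log2 difference 1.37, adjusted p = 0.00524) and TIFY 6b (Zm00001d020409) with a difference of 0.92 (adjusted p = 0.0125). ERF008 (gene_Zm00001d045204), an ethylene-responsive factor, was lower, with a difference of −1.18 (adjusted p = 0.0081). TIFY 10b and ERF008 passed with any library left out, and TIFY 6b in 5 of 6 leave-one-out fits, with an adjusted p of up to 0.0502 (without *zmnlp3.1* replicate 4).

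None of 278 cytosolic ribosomal protein genes passed the test under KNO3, with a median of −0.03. Under KCl, where 1.24% of all genes were higher, 11 of the 278 were higher, with a median of 0.24. None of them passed the interaction test. Of 75 heat shock proteins and factors 2 were lower (2.67%, against 3.73% of all genes) and 1 was higher (1.33%, against 1.69%), heat stress factor C-2a (Zm00001d016255), with 32.03, 30.9 and 36.7 FPKM in the *zmnrt1.1b* libraries and 87.8, 73.9 and 67.97 FPKM in those of *zmnlp3.1* (log2 difference 1.20, adjusted p = 0.00706). The lower ones were a class I and a class VI small heat shock protein (Zm00001d028557 and Zm00001d038608), with differences of −0.80 (adjusted p = 0.0208) and −0.78 (adjusted p = 0.0297). Of 148 histones, cyclins and their kinases 2 were lower (1.35%, against 3.73% of all genes) and 2 higher (1.35%, against 1.69%), among them histone H1 (Zm00001d045478) with a difference of −1.24 (adjusted p = 0.00706) and cyclin-A2-1 (Zm00001d014756) with a difference of 0.95 (adjusted p = 0.0332). Of 44 clock and B-box genes 4 were higher (9.09%, against 1.69% of all genes) and 2 lower (4.55%, against 3.73%), and 0 to 2 were higher with 1 library left out. B-box protein 19 (gene_Zm00001d021278) had a difference of 1.03 (adjusted p = 0.0131) and B-box protein 21 (Zm00001d051309) −0.81 (adjusted p = 0.0356). C-2a and histone H1 passed with any library left out. The others named here did not, with highest adjusted p of 0.0886 and 0.101 for the small heat shock proteins, 0.129 for cyclin-A2-1, 0.065 for B-box protein 19 and 0.131 for B-box protein 21.

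**Figure D4:**
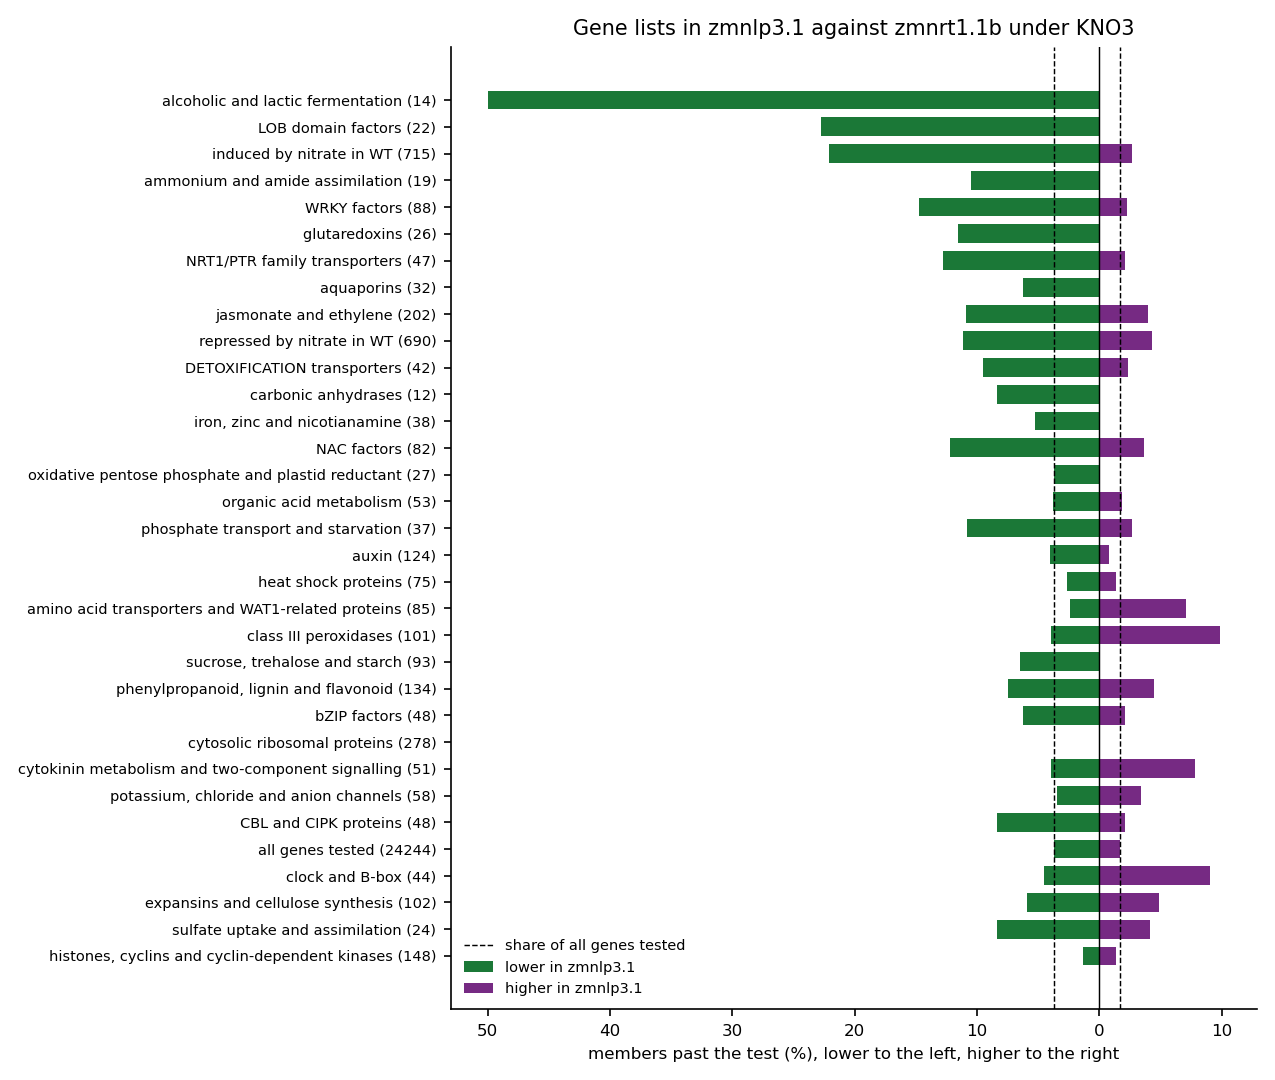
Bars give the share of tested members of each gene list (percent, x axis) that were lower (to the left) or higher (to the right) in *zmnlp3.1* than in *zmnrt1.1b* under KNO3, with the number tested in brackets on the y axis, and dashed lines mark the 3.73% and 1.69% of all genes. Of these lists, each with at least 10 tested members, fermentation genes (7 of 14) and LOB domain factors (5 of 22) extend farthest to the left, and class III peroxidases (10 of 101) and clock and B-box genes (4 of 44) farthest to the right.

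A small set of genes turned round between treatments in the fits with all libraries. Under both treatments 13 genes passed the test with opposite signs, 12 of them higher under KNO3 and lower under KCl in *zmnlp3.1*. Their KCl calls are given with all libraries only. Without *zmnrt1.1b* KCl replicate 2, the KCl counts over all genes fell to 37 lower and 20 higher. All 13 passed the interaction test, but it uses the same libraries, and opposite signs past both tests nearly ensure that. It is therefore no separate evidence. The largest change was in a low molecular mass early light-inducible protein (Zm00001d007827, chromosome 2, 240431883 to 240432461), of a group that binds pigments under light stress. Under KNO3 it stood at 8.99, 7.66 and 7.72 FPKM in the *zmnrt1.1b* libraries and 22.9, 23.7 and 29.8 FPKM in those of *zmnlp3.1*, and under KCl at 37.1, 41.5 and 38.97 FPKM in the *zmnrt1.1b* libraries and 6.81, 3.18 and 4.64 FPKM in those of *zmnlp3.1*. *zmnlp3.1* was above under KNO3 and below under KCl, with no overlap in either. The differences were 1.63 (adjusted p = 0.003) and −3.05 (adjusted p = 0.00486), and the change 4.67 (adjusted p = 9.31e-05). LSD1 (Zm00001d049525), a zinc finger regulator of cell death in Arabidopsis, followed the same pattern. It stood at 2.21, 2.08 and 1.37 FPKM in the *zmnrt1.1b* libraries and 8.22, 7.003 and 6.86 FPKM in those of *zmnlp3.1* under KNO3 and at 7.84, 9.70 and 6.80 FPKM in the *zmnrt1.1b* libraries and 3.20, 1.95 and 2.09 FPKM in those of *zmnlp3.1* under KCl, a change of 3.66 (adjusted p = 0.0013).
The reverse case was the aquaporin PIP1-6 (Zm00001d020383), a channel of the plasma membrane. It stood at 1.88, 2.08 and 2.85 FPKM in the *zmnrt1.1b* libraries and 0.448, 0.573 and 0.644 FPKM in those of *zmnlp3.1* under KNO3 and at 2.86, 1.91 and 2.58 FPKM in the *zmnrt1.1b* libraries and 5.93, 4.83 and 6.25 FPKM in those of *zmnlp3.1* under KCl. Its differences were −1.84 (adjusted p = 0.0227) and 1.19 (adjusted p = 0.0227), and the change −3.03 (adjusted p = 0.00298). Under KNO3 its call was lost without any 1 of the *zmnlp3.1* libraries, with a highest adjusted p of 0.0624, and with a *zmnrt1.1b* library left out it no longer had enough libraries at 1 FPKM to be tested.

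Other described genes of the 13 changed less. A pair of temperature-induced lipocalins (gene_Zm00001d032162 and gene_Zm00001d017199), which protect membranes from oxidation in Arabidopsis, had changes of 1.67 (adjusted p = 0.00584) and 2.002 (adjusted p = 0.00568). 4-coumarate-CoA ligase 2 (Zm00001d051529), an entry enzyme of lignin and flavonoid synthesis, had a change of 1.58 (adjusted p = 0.00584). SPEAR3 (gene_Zm00001d043874), NAC71 (gene_Zm00001d000112), the SQUAMOSA promoter-binding-like protein 2 (Zm00001d012015), a DSP2 tyrosine phosphatase (gene_Zm00001d044970) and the receptor-like kinase PERK4 (Zm00001d034257) had changes from 1.23 (NAC71) to 2.51 (PERK4).
Outside the 13, CONSTANS-LIKE 5 (gene_Zm00001d046925), a B-box factor, was lower in *zmnlp3.1* under KCl, with a difference of −1.05 (adjusted p = 0.011) and had a difference of 0.52 (adjusted p = 0.0521) under KNO3, a change of 1.57 (adjusted p = 0.00214). The MYB-related gene Hv33 (Zm00001d011669) stood at 7.38, 8.38 and 6.77 FPKM in the *zmnrt1.1b* libraries and 24.4, 20.6 and 22.5 FPKM in those of *zmnlp3.1* under KNO3, a difference of 1.57 (adjusted p = 0.00289) against 0.01 (adjusted p = 0.968) under KCl. Its change was 1.56 (adjusted p = 0.00298).
CIPK31 (gene_Zm00001d028949) stood at 26.2, 26.6 and 34.7 FPKM in the *zmnrt1.1b* libraries and 65.1, 58.04 and 57.5 FPKM in those of *zmnlp3.1* under KNO3, a difference of 1.05 (adjusted p = 0.0112) against −0.62 (adjusted p = 0.0571) under KCl, and the change was 1.67 (adjusted p = 0.00584). The anion channel SLAH3 (Zm00001d041653), which passes nitrate and chloride in Arabidopsis, stood at 5.98, 4.55 and 4.77 FPKM in the *zmnrt1.1b* libraries and 10.1, 11.6 and 10.1 FPKM in those of *zmnlp3.1* under KNO3 and 9.20, 11.5 and 9.62 FPKM in the *zmnrt1.1b* libraries and 10.5, 8.97 and 9.19 FPKM in those of *zmnlp3.1* under KCl. Its difference under KNO3 was 1.05 (adjusted p = 0.0144), and its change 1.13 (adjusted p = 0.0297). NPF2.11 (Zm00001d033528), a glucosinolate transporter in Arabidopsis, passed neither treatment alone, with a difference of 0.56 (adjusted p = 0.0796) under KNO3 and −0.49 (adjusted p = 0.0796) under KCl, but its change passed at 1.06 (adjusted p = 0.0414).

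**Figure D5:**
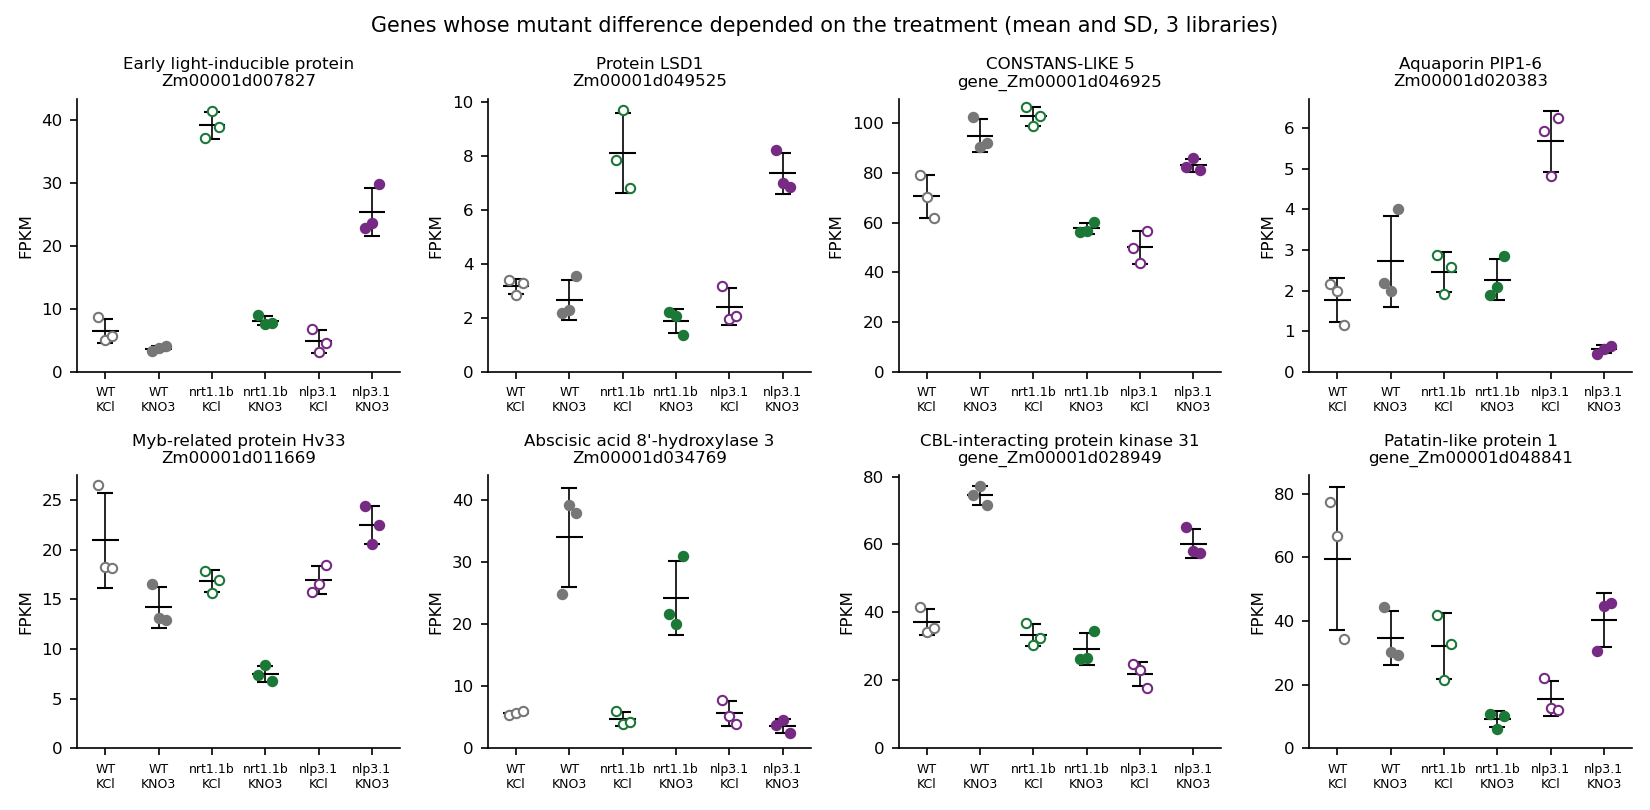
Points are the FPKM of single libraries (y axis, from 0) in each of the 6 groups (x axis) for genes whose mutant difference changed between treatments, with the mean and SD of each group of 3 libraries. For the early light-inducible protein and LSD1, *zmnlp3.1* lies above *zmnrt1.1b* under KNO3 and below it under KCl.

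The differing genes were spread over all chromosomes. From 2.82% (chromosome 9) to 4.06% (chromosome 3) of the tested genes of a chromosome passed both thresholds under KNO3. The window of 10 Mb with the most genes that passed them in the same direction under both treatments was 0 to 10 Mb of chromosome 2, with 19 of 311 tested genes past the thresholds under KNO3 and 6 under both. Next came 4 windows with 5 under both. They were 0 to 10 Mb of chromosome 8 (15 of 178 under KNO3) and 140 to 150 Mb of chromosome 7 (11 of 161). The others were 150 to 160 Mb of chromosome 3 (9 of 107) and 170 to 180 Mb of chromosome 5 (8 of 164).
The rule for named genes gave 122 genes, 107 of them past the test under KNO3. None of the 107 changed direction in an alternative, 81 stayed past the test in each alternative with all libraries, and 52 in each fit that left out 1 library. Of the 104 that could be tested without *zmnlp3.1* replicate 4 or without *zmnrt1.1b* replicate 5, 56 and 59 stayed past the test, against 77 to 90 without one of the others.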

How the data were processed

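Per the study's methods and the submitters' processing notes, the authors cleaned reads with fastp, aligned them to B73 with HISAT2 2.0.5 and assembled transcripts with StringTie 1.3.3b. The authors deposited FPKM for 47334 genes in 18 libraries. How reads were counted, and how libraries were scaled against each other, is not given in the sources used here. No column of values was left unused (0). Multiplied by gene length, the deposited FPKM gave whole reads in each library within 0.05 of a read, which set the depths in the report.

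The 6 libraries of both mutants under KNO3 were compared with limma 3.58.1 (R 4.3.3, trend, 4 residual degrees of freedom) on log2(FPKM + 0.1), for genes with at least 1 FPKM in at least 3 libraries, without a replicate block. The KCl comparison, the interaction over 12 libraries and the WT response (for lists only) were fitted in the same way. The script was tested on simulated data with 200 changed genes. With 3 libraries per group, an exact two-sided permutation test of 1 gene cannot go below p = 0.1, so it was not used.

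The members and lists were chosen with earlier results of these data known. Lists are patterns in protein descriptions, and names that matched by letters alone were removed after the table was at hand. Named genes are the 10 largest differences in each direction (both thresholds, mean of at least 5 FPKM, no overlap, described), up to 3 members of each list past the test with the smallest p, the NPF6.3, NLP3, nitrate reductase, nitrite reductase and high-affinity transporter genes, and the 5 described genes with the smallest interaction p. The genes of opposite sign, the genes with large differences in both treatments, the third and later members of LBD and fermentation, and NPF2.11 were named after their values were seen. Promoter sequences were not analysed here. Replicate numbers 2 and 4 are shared by the KNO3 groups. Libraries with the same number deviated together with r = 0.05 and 0.24 (2 pairs), and the other pairs under KNO3 with r from −0.16 to 0.10. Over the 4 mutant groups, same-numbered libraries had r from −0.095 to 0.388, and those of replicate 4 from 0.128 to 0.388. Libraries of different number had r from −0.332 to 0.227. The labels do not say whether same-numbered libraries are pairs. Positive interactions numbered 154 without a replicate block and 94 with it, and 62 genes were in both sets. Negative interactions numbered 35 in each fit, but only 14 genes were in both sets. Alternatives were another pseudocount, other minimum levels, rescaling by median ratios, voom on recovered reads, a replicate block, fits with 12 or 18 libraries, and each library left out.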

Additional observations from a re-analysis of the deposited data

Results flagged for a closer look

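In 17 named genes the mutants differ by another amount under KNO3 than under KCl. The values are the log2 difference under KNO3 minus that under KCl, each past the interaction test (limma, adjusted p under 0.05). Positive values were 4.67 for the early light-inducible protein (Zm00001d007827), 3.66 for LSD1 (Zm00001d049525), 3.19 for patatin-like protein 1 (gene_Zm00001d048841), 3.04 for deoxyhypusine synthase (Zm00001d003994), 2.35 for the UPF0481 gene (Zm00001d045130), 1.67 for CIPK31 (gene_Zm00001d028949), 1.57 for CONSTANS-LIKE 5 (gene_Zm00001d046925), 1.56 for Hv33 (Zm00001d011669), 1.33 for B-box protein 25 (Zm00001d017147), 1.31 for a xyloglucan endotransglucosylase (gene_Zm00001d052651), 1.14 for cyclin-P4-1 (Zm00001d015092), 1.13 for SLAH3 (Zm00001d041653) and 0.92 for TIFY 6b (Zm00001d020409). Negative values were −3.49 for dolabradiene monooxygenase (Zm00001d014136), −3.03 for PIP1-6 (Zm00001d020383), −2.96 for abscisic acid 8′-hydroxylase 3 (Zm00001d034769) and −1.66 for Mg-chelatase subunit ChlH (Zm00001d001850).

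B-box protein 25 stood at 79.8, 76.9 and 84.7 FPKM in the *zmnrt1.1b* libraries and 139.6, 143 and 142 FPKM in those of *zmnlp3.1* under KNO3 and at 154, 133 and 140.2 FPKM in the *zmnrt1.1b* libraries and 130.2, 88.3 and 84.6 FPKM in those of *zmnlp3.1* under KCl. The endotransglucosylase, which cuts and rejoins wall xyloglucan, stood at 15.7, 12.96 and 10.3 FPKM in the *zmnrt1.1b* libraries and 27.98, 22.9 and 22.2 FPKM in those of *zmnlp3.1* under KNO3 and at 29.7, 25.2 and 20.1 FPKM in the *zmnrt1.1b* libraries and 17.5, 20.2 and 18.6 FPKM in those of *zmnlp3.1* under KCl. Cyclin-P4-1 stood at 24.8, 20.8 and 18.3 FPKM in the *zmnrt1.1b* libraries and 44.6, 32.1 and 44.9 FPKM in those of *zmnlp3.1* under KNO3 and at 29.97, 30.5 and 24.3 FPKM in the *zmnrt1.1b* libraries and 22.2, 23.8 and 26.7 FPKM in those of *zmnlp3.1* under KCl. The KNO3 difference of each of these 3 genes was past the test with all libraries, and lost it in at least 1 fit that left out 1 library, with highest adjusted p of 0.0683, 0.0952 and 0.118.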

How the results depend on the processing

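In none of the alternatives run did a named gene past the test change direction. With voom on recovered reads, in place of log2 FPKM, 619 genes were higher under KNO3 and 486 under KCl. With no minimum level, 591 were lower under KNO3. With the 12 libraries of both mutants in 1 fit, 1116 were higher and 1568 lower under KNO3, and with all 18 libraries 1759 and 2240, of which 376 higher genes passed both thresholds and 250 lower genes were induced in WT. With the replicate block in the 6 libraries, 360 higher genes passed both thresholds, and with the block in 12 libraries 747 were higher and 94 had a positive interaction. Of these 94, 62 also had a positive interaction past the test without the block. Leaving out each library in turn gave 90 to 414 higher and 217 to 702 lower genes under KNO3, 87 to 254 and 214 to 590 past both thresholds, 20 to 408 higher and 37 to 1481 lower under KCl, 42 to 245 positive and 5 to 52 negative interactions, and 58 to 136 lower genes among those induced in WT. The losses were greatest without *zmnlp3.1* KNO3 replicate 4 or *zmnrt1.1b* KNO3 replicate 5, and under KCl without *zmnrt1.1b* KCl replicate 2. The cause was not tested. Other alternatives kept these counts within 1.5 times. Genes with few reads limit precision, as RBP47 does with 1 read in *zmnrt1.1b*.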
